A study of Mus musculus with 2 samples.

Results

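The genes described here were 9 targets and inhibitors of bone morphogenetic protein (BMP) signaling, namely the inhibitors of DNA binding Id1, Id2, Id3 and Id4, the SMAD genes Smad6, Smad7 and Smad9, the pseudoreceptor gene Bambi and the homeobox gene Msx2. They were taken by symbol from the gene tables of both sections, and all 9 were found among the 19430 named genes. Their levels were measured by Visium spatial transcriptomics, which counts unique molecular identifiers (UMIs) of gene-specific probe pairs in spots laid over a tissue section, here 2 sections of decalcified, formalin-fixed tibial fracture callus. Each section held the callus of a control mouse (Nf1+/flox without the cre transgene) and of an Nf1Postn mouse (Postn-cre;Nf1 flox/-), both female, 2 months old and sampled 10 days after a pinned fracture of the distal tibia. Control mice carry 1 floxed Nf1 allele, and cells of Nf1Postn mice outside the periostin lineage keep that floxed allele beside a null allele. The labels name the sections as replicates, while the methods describe paired calluses embedded in the same block and serial sections, and do not say whether both sections came from the same pair of mice. The sections were therefore treated as repeat measurements and not as animals, no test was made, and every interval given here covers counting error only.

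BMPs are secreted ligands of the transforming growth factor family that bind paired receptor kinases, which phosphorylate SMAD1, SMAD5 and SMAD9. These enter the nucleus with SMAD4 and switch on genes, among which the Id genes are the classical direct targets. ID proteins lack a DNA-binding domain and hold E proteins such as TCF3, TCF4 and TCF12 in complexes that cannot bind DNA. SMAD6, SMAD7 and BAMBI act as feedback inhibitors, the first 2 at the receptors and the SMADs, and BAMBI as a receptor-like protein without a kinase domain. In fracture repair, BMP signaling is needed for the callus to form cartilage and bone.

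RefSeq promoter windows of build GRCm38.p6 were at hand for 6 of the 9 genes, Id2, Id3, Id4, Smad6, Smad9 and Msx2. The 250 bases before the start site are shown for the gene with the most UMIs (Id3), for the gene with the most distinct tissue pattern (Id4) and for the 2 SMAD genes with the largest contrasts between tissues or genotypes (Smad6 and Smad9). The Id3 stretch was chr4:136143572-136143821 (plus strand). The Id4 stretch was chr13:48260866-48261115 (plus strand). The Smad6 stretch was chr9:64022060-64022309 (minus strand). The Smad9 stretch was chr3:54755332-54755581 (plus strand). Capitals mark the GC-rich letters GGCGCC and GGAGCC (or its reverse complement GGCTCC), which resemble elements described for BMP-activated SMADs, and CAGAC (or GTCTG), the core letters read by SMAD3 and SMAD4.
Id3: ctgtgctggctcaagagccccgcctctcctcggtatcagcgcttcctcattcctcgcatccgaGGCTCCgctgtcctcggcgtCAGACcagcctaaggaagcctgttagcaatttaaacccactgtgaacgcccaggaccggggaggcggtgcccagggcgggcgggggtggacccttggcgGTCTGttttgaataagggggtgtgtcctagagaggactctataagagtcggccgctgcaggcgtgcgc
Id4: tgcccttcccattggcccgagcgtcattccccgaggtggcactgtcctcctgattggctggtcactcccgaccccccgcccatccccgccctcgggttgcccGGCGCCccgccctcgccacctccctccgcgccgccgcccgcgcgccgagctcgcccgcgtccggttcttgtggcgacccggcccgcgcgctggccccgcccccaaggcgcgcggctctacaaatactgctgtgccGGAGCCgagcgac
Smad6: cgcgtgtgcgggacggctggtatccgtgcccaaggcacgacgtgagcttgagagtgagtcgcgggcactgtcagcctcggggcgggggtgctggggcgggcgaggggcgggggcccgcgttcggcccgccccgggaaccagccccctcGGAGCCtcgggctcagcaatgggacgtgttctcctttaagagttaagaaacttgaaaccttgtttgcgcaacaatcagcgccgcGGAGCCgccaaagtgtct
Smad9: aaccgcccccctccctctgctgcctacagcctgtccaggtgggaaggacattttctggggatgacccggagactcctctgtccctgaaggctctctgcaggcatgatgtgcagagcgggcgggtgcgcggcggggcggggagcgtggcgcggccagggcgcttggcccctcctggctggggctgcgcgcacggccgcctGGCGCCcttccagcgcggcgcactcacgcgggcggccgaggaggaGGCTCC
GGAGCC on either strand was present in all 6 members' windows and in 26.0% of 32851 mouse windows of the same length. GGCGCC was present in Id2, Id4 and Smad9, against 9.59% of all windows, and CAGAC only in Id3, against 42.2%. The members' windows were GC-rich, from 61.6% in Msx2 to 75.6% in Id4, where the median of all windows was 52.4%. The E-box letters CANNTG, read by E proteins and not marked above, were present in Id2, Smad9 and Msx2 and in 66.2% of all windows. Letters alone do not show binding.

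In mm39, Id1 lies on chromosome 2 (152578171 to 152579330), Id2 on chromosome 12 (25143798 to 25147139), Id3 on chromosome 4 (135870808 to 135873066) and Id4 on chromosome 13 (48414704 to 48419502), as given with the counts. Smad6 lies on chromosome 9 (63860358 to 63929341), Smad7 on chromosome 18 (75500600 to 75529006), Smad9 on chromosome 3 (54663003 to 54708678), Bambi on chromosome 18 (3507923 to 3516404) and Msx2 on chromosome 13 (53620920 to 53627110).

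The tables held 6375 spots with a genotype, and the groups had 12122419 to 13562253.5 UMIs in control and 3462224.5 to 5984157 in Nf1Postn per section, so that control values are the better determined. Nf1, the targeted gene, was counted at 87.8 and 79.0 CPM (UMIs of a gene scaled to a total of 1000000) in the control callus of sections 1 and 2 and at 65.6 and 49.6 CPM in Nf1Postn. Whether its probes lie in the deleted part is not given in the sources used here. Spots were clustered into 15 regions without using the 9 genes or their pathway, and regions are named here by number and leading genes. In control, cartilage was region 7, led by Col10a1 and Ihh (393 control spots), and region 9, led by Ucma and Acan (392), while bone was region 1, led by Acp5, Siglec15 and Mmp9 with Dmp1 among its leading genes (733), and the smaller region 14, led by Bglap and Mepe (155, of which 20 in section 1). Of the Nf1Postn spots, 69 lay in these 4 regions. Region 5 was led by the tendon genes Angptl7 and Cilp2, with the osteocyte genes Mepe and Sost among its leading genes. It held 270 control and 200 Nf1Postn spots and was not counted as bone here. Its 5 osteocyte markers summed to 2947 CPM in control, against 2486 CPM in region 1 and 2814.5 CPM in region 14. Its osteoblast markers summed to 8939 CPM, against 12140.5 and 16298 CPM in these regions. The 6 tendon markers summed to 802 CPM in region 5, below the 1453 CPM of cartilage region 9. Region 5 is therefore not named as tendon here. The summed level of 12 cartilage markers was 51857 and 32839 CPM in control and 5241 and 9519.8 CPM in Nf1Postn, and that of 10 muscle markers 16999.5 and 27037 CPM against 77002 and 132932 CPM. The 10 osteoblast markers summed to 6515 and 6282 CPM in control and 3397.5 and 2216.5 CPM in Nf1Postn (9 called lower), the 9 osteoclast markers to 7649 and 6400 CPM against 3625 and 1619 CPM (7 lower) and the 5 erythroid markers to 163 and 293 CPM against 1844.5 and 1659.5 CPM (5 higher).

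In the control callus, 5 of the 9 genes were highest in bone region 1 or 14 on pooled counts (Id1, Id3, Smad6, Smad9 and Bambi). Id1 was as high in cartilage region 7 as in bone. In section 2 alone, Id1 and Smad6 were highest in region 3. The share of all genes that were highest in region 1 or 14 was not counted. Id3, the member with the most UMIs, was counted at 1043 CPM (95% interval 1019 to 1067) in region 1 and 1057 CPM (980 to 1138) in region 14, against 548 CPM (513 to 584) in region 7 and 461 CPM (443 to 479) in region 9. Bambi was counted at 149 CPM (140 to 158) in region 1 and 165 CPM (135 to 199) in region 14. It was at 79.4 CPM in region 7, 66.2 CPM in region 9 and 22.4 CPM in region 12. Its lowest level among the 11 regions compared was in region 11, which was led by the embryonic muscle genes Myh8 and Myh3. The intervals of the 2 bone regions overlapped for both genes. Bambi in both lay above every other region compared, whereas the next region for Id3, region 3 with 892 CPM (804 to 987), overlapped region 14. The order of the 11 regions compared was much alike in sections 1 and 2 for Bambi (Spearman rho 0.94) and Id3 (0.93). This order was less alike for Id1 (0.78), Smad6 (0.52) and Smad9 (0.39). Regions 1 and 14 together held 29.8% of all control UMIs but 58.7% of those of Smad9, 57.5% of Bambi, 50.3% of Smad6 and 46.7% of Id3.

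**Figure D1:**
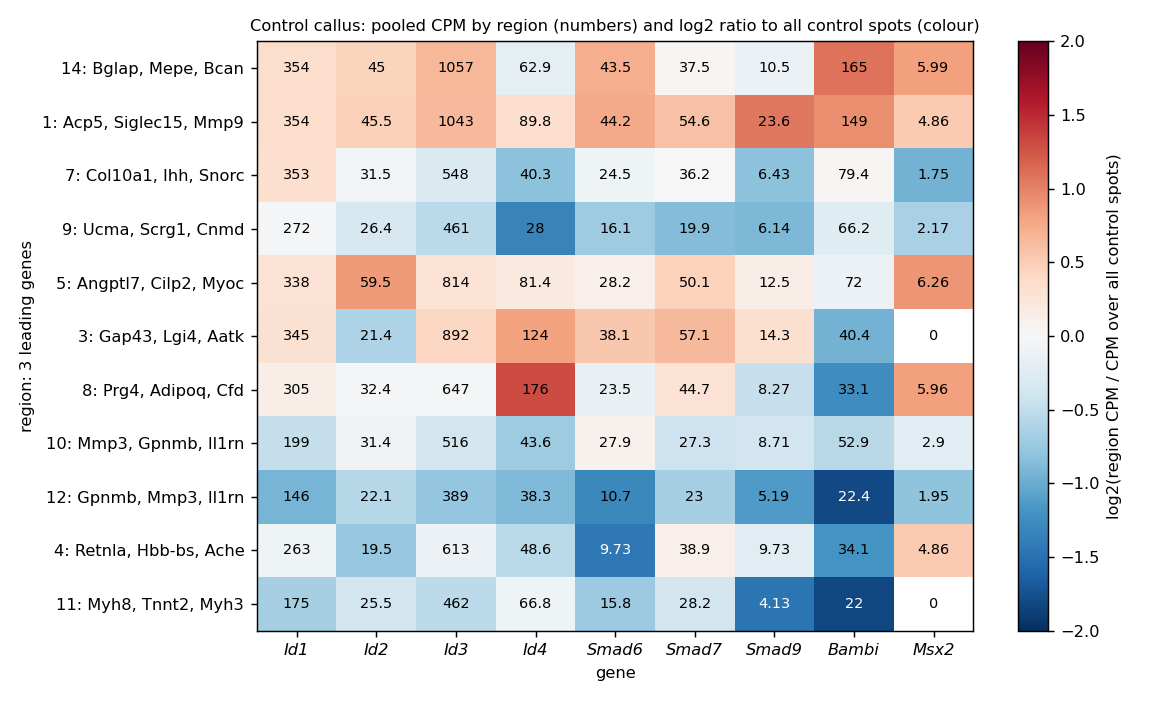
Pooled CPM of each gene in 11 regions of the control callus (numbers in the cells; both sections summed) and the log2 ratio to all control spots (color). Rows are regions with their 3 leading genes. Id3 and Bambi are highest in the bone regions 14 and 1, Id4 in region 8, and cells with a count of 0 are white.

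Id1 did not share the step from cartilage region 7 to bone. It was counted at 354 CPM (340 to 368) in region 1, 354 CPM in region 14 and 353 CPM (325 to 382) in region 7, so that the hypertrophic cartilage region and the bone regions could not be told apart. Region 9 was lower at 272 CPM (259 to 286). Among the 11 regions compared, the lowest levels were in regions 12 (146 CPM) and 11 (175 CPM). Muscle region 2, with 18 control spots in section 2, was not among them and had 95.7 CPM (71.0 to 126). For every UMI of Id3, regions 1 and 14 had 0.339 and 0.335 UMIs of Id1, and regions 7 and 9 had 0.644 and 0.591. This ratio was higher in both cartilage regions than in region 1 in each section, with 0.638 and 0.604 against 0.347 in section 1 and 0.660 and 0.558 against 0.328 in section 2.

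Id4 had a pattern of its own. It was highest in region 8, led by Prg4, Adipoq and Cfd, at 176 CPM (161 to 192), with 199 CPM in section 1 and 157 CPM in section 2. The next regions were region 3, led by the Schwann cell genes Gap43 and Lgi4, with 124 CPM (92.4 to 162), and region 1 with 89.8 CPM. Cartilage region 7 had 40.3 CPM, close to region 12 with 38.3 CPM. Cartilage region 9 was lowest of the 11 regions compared with 28.0 CPM, 6.29-fold below region 8. Region 8 over region 1 gave a log2 ratio of 1.00 in section 1 and 1.07 in section 2 for Id4, whereas it was -2.28 and -2.09 for Bambi and -0.89 and -0.95 for Smad6. Of the 11 regions compared, region 8 also had the highest summed level of 10 endothelial markers, 1774 CPM against 1044 CPM in region 1 and 784 CPM in region 7, and of 6 adipocyte markers, 1388 CPM against 323 and 207 CPM; their part in the Id4 level was not tested.

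Among the SMAD genes, Smad9, a signal-transducing SMAD of the BMP branch, was the most restricted. It was counted at 23.6 CPM (20.1 to 27.5) in region 1, and its next highest value, 14.3 CPM in region 3, rested on 6 UMIs. Region 14 had 10.5 CPM from 7 UMIs and regions 7 and 9 had 6.43 and 6.14 CPM. Smad6, an inhibitory SMAD selective for BMP receptors, was counted at 44.2 CPM (39.4 to 49.4) in region 1 and 43.5 CPM in region 14, and at 24.5 and 16.1 CPM in regions 7 and 9. Smad7, which also inhibits transforming growth factor β receptors, varied less, with 54.6 CPM (49.3 to 60.4) in region 1, 44.7 CPM in region 8, 36.2 CPM in region 7 and 19.9 CPM in region 9. Its level in region 3, 57.1 CPM (36.6 to 85.0), did not differ from that of region 1 beyond counting error.

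Id2 was counted at 45.5 CPM (40.6 to 50.8) in region 1, 45.0 CPM in region 14 and 59.5 CPM (35.8 to 92.9) in region 5. The leading genes of region 5 were the tendon genes Angptl7 and Cilp2 and also the osteocyte genes Mepe and Sost. The remaining regions of the 11 compared lay between 19.5 and 32.4 CPM. The order of regions for Id2 did not carry over between sections (rho 0.05). Msx2 was near the limit of detection, with 87 UMIs in all control spots and at most 34 in a region, and its levels of 0 to 6.26 CPM gave no order of regions.

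The osteoblast-marker reference region (region 14) was set against the cartilage-marker reference region (region 7) to ask where in the healing control callus the BMP response genes stand highest. Id3 was higher in bone (log2 ratio 0.80 and 1.18 in sections 1 and 2, pooled 1.93-fold), and so was Bambi (1.71 and 0.71, pooled 2.08-fold). These were the 2 members called, where a gene was called higher or lower if its ratio reached 1.5-fold the same way in both sections. Only 4 members had the 50 UMIs per section needed for a call, and Id1 and Id4 were not called. Id1 had log2 ratios of 0.17 and 0.15 in sections 1 and 2 (pooled 0.00, interval -0.22 to 0.22). Id4 had 0.88 and 0.51 (pooled 0.64, 0.05 to 1.22). Region 14 had 135 of its 155 control spots in section 2, and region 7 had 262 of 393 in section 1. Pooled ratios therefore mix the sections unequally, and that of Id1 lay below both sections. Over all 3713 genes tested, 5.28% were called higher in bone and 4.74% lower.

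With region 1 in place of region 14, a choice made after the first result was seen, 8 members could be compared and 5 were called higher than in region 7, against 8.67% of 8054 genes, and none lower, against 2.66%. Smad9 stood out with 23.0 and 24.6 CPM in region 1 of sections 1 and 2 and 6.78 and 5.65 CPM in region 7 (log2 ratio 1.88, 1.00 to 2.91). Id4 had a log2 ratio of 1.16 (0.80 to 1.54), Id3 of 0.93 (0.83 to 1.03), Bambi of 0.91 (0.65 to 1.18) and Smad6 of 0.85 (0.38 to 1.35). Smad7 (0.59, 0.20 to 1.00) reached 1.5-fold in section 2 alone, as did Id2 (0.53, 0.11 to 0.97), and Id1 was level at 0.00 (-0.13 to 0.13). The median log2 ratio was 0.88 over the 8 members and 0.22 over all genes tested. With factors of the trimmed mean of M values (TMM) in place of total UMIs, no member was called for region 14, and Bambi was no longer called for region 1. The share of all calls that were higher went from 52.7% to 23.9% for region 14 and from 76.5% to 63.2% for region 1. With region 9 as the cartilage side of region 1, also not the first choice, 7 of 8 members were called higher and 0 lower. Of 9005 genes, 10.3% were called higher and 5.94% lower. Id2 and Smad7 were among the 7, and Id1 was not called (0.38, 0.28 to 0.47). TMM factors were not applied to this comparison.

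**Figure D2:**
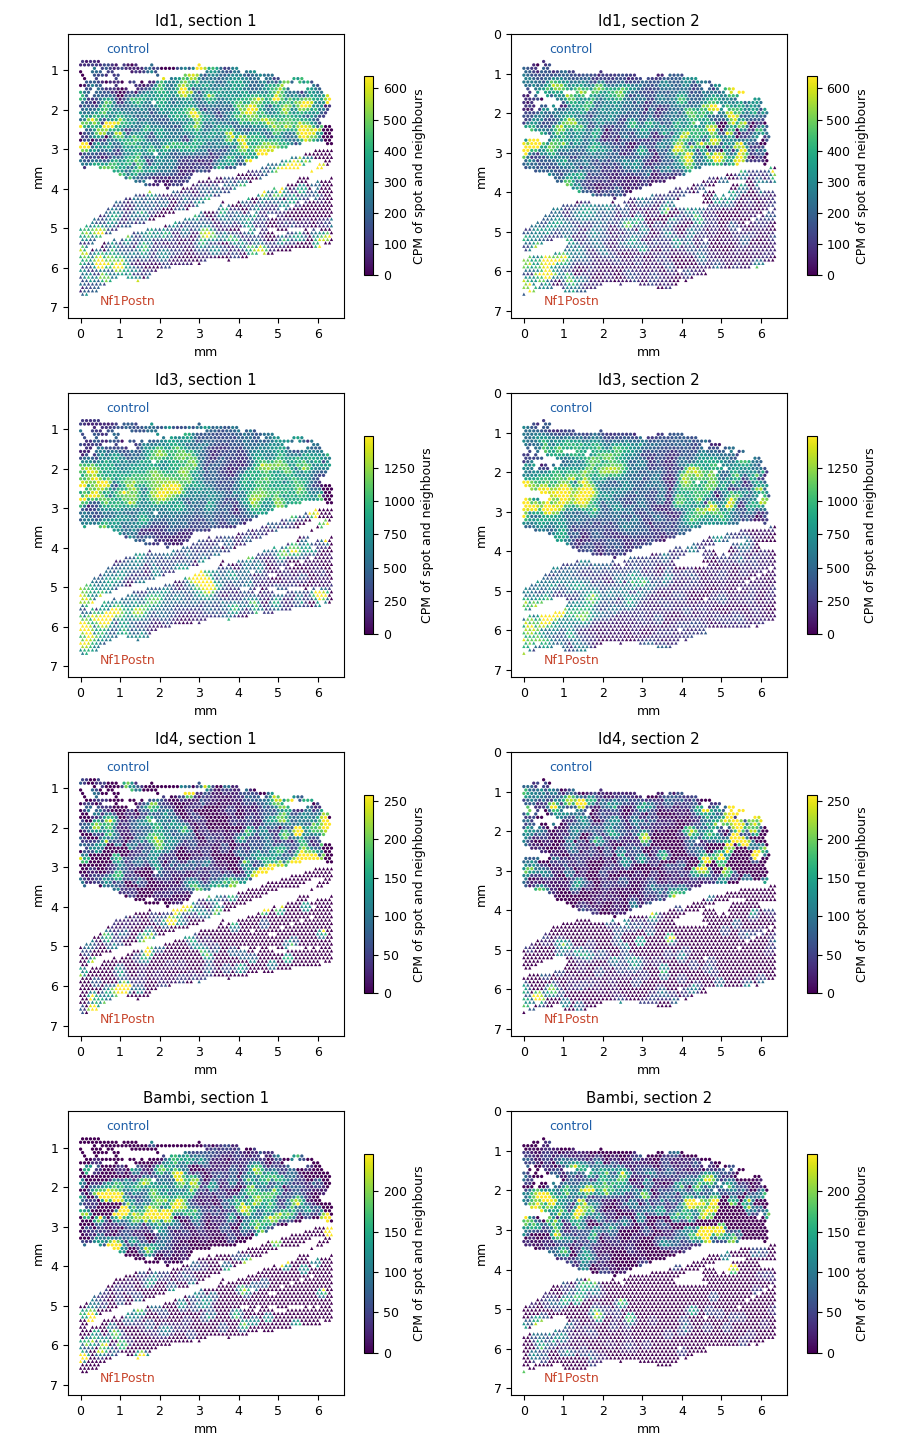
Level of Id1, Id3, Id4 and Bambi over the sections, as CPM of each spot summed with its direct neighbors of the same callus (color, capped at the 98th percentile of all spots). Axes are in mm. Control spots are circles (upper tissue) and Nf1Postn spots triangles (lower tissue); Id3 and Bambi show 2 flanking areas of high level on either side of a low central band in control, and Id4 is high at the right-hand end, in section 1 also along the lower margin.

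Along the long axis of the control callus, measured from the centroid of region 7, Id3 showed a trough at 1 mm in both sections. Its level was 805 and 737 CPM at -1 mm, 646 and 543 CPM at 0 mm, 432 and 422 CPM at 1 mm and 856 and 805 CPM at 2 mm in sections 1 and 2. The bin at 1 mm was the one with the largest share of spots in the cartilage regions 7 and 9, 78.0% and 48.9%, and the bin at 2 mm had 63.9% and 49.6% of its spots in regions 1 and 14. Bambi was also low at 1 mm, at 55.3 and 50.6 CPM, and in section 2 as low at 0 mm (47.4 CPM), and was highest at 2 mm, at 113 and 125 CPM. At 3 mm Bambi was at 43.8 and 47.4 CPM again, whereas Id4 was at its highest there, at 213 and 199 CPM against 40.4 and 34.1 CPM at 1 mm. Id1 was asymmetric, with 385 and 339 CPM at 2 mm and 267 and 268 CPM at -2 mm. Its lowest bin was at -3 mm in section 1 (254 CPM) and at 0 mm in section 2 (194 CPM). Regions led by muscle genes held 35.2% and 22.6% of the spots at -2 mm and 0% at 2 mm in both sections. Their part in the asymmetry was not tested.

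By distance to the nearest spot of region 7, 7 of the 9 genes were higher within 0.3 mm of the region than inside it on pooled counts, and 5 were so in both sections (Id3, Id4, Smad6, Smad9 and Msx2). A difference of any size was counted, and the share of all genes higher there was not. Among the 7, the pooled intervals lay apart for Id3 only (513 to 584 CPM inside, 692 to 728 CPM within 0.3 mm). Msx2 had 3 UMIs inside the region. Smad9 was counted at 6.43 CPM inside, 12.8 CPM within 0.3 mm, 11.2 CPM between 0.3 and 0.6 mm and 12.1 CPM beyond 1 mm. Id3 was counted at 548 CPM inside and 709.8 CPM within 0.3 mm, and Bambi at 79.4 CPM inside, 97.4 CPM within 0.3 mm and 47.3 CPM beyond 1 mm. For Bambi the sections went opposite ways at the border, from 72.8 to 105 CPM in section 1 and from 94.1 to 87.5 CPM in section 2. Id4 climbed with distance, from 40.3 CPM inside to 50.7, 69.3, 75.5 and 130.2 CPM. Id1 went the other way, from 353 CPM inside to 296 CPM within 0.3 mm and 256 CPM between 0.3 and 0.6 mm. Within 0.3 mm, 32.8% of spots belonged to regions 1 and 14 and 29.6% to region 9, and beyond 1 mm 35.7% belonged to regions led by muscle genes.

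**Figure D3:**
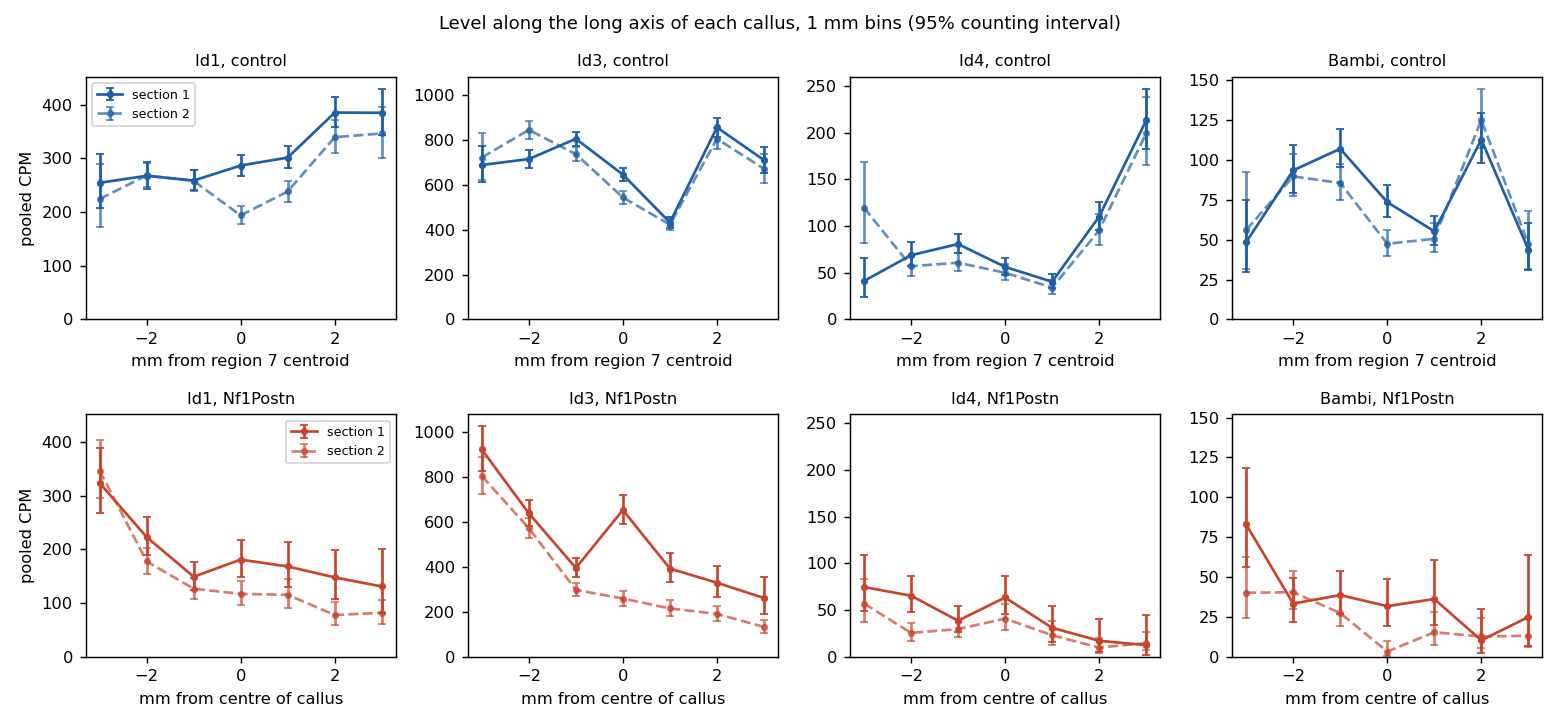
Pooled CPM of Id1, Id3, Id4 and Bambi in bins of 1 mm along the long axis of each callus, with 95% counting intervals; solid lines are section 1 and dashed lines section 2. In control (upper row, 0 is the centroid of region 7) Id3 has a trough at 1 mm, Bambi is highest at 2 mm and Id4 is highest at 3 mm; in Nf1Postn (lower row, 0 is the center of the callus) Id1 and Id3 are highest at -3 mm.

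Over 112 tiles of the control callus (a median of 35 spots each, both sections), the members that were most alike were Id3 and Bambi (Pearson r 0.72), Id1 and Bambi (0.68) and Id1 and Id3 (0.66), whereas Id4 and Bambi had an r of 0.14. These correlations are descriptions, since tiles of a section share the animal, the library and its depth. Among 2505 genes with at least 2000 control UMIs, the genes most like Bambi were Sp7, which encodes the osteoblast factor osterix (r 0.85), Alpl, the bone alkaline phosphatase (0.84), and Unc5b (0.83). Id3 was most like Lifr, a receptor of the leukemia inhibitory factor family (0.85), Col1a2 (0.81) and the osteocyte matrix gene Dmp1 (0.80). Id1 was most like Ptgis, the prostacyclin synthase (0.71), Alpl (0.70) and Bambi (0.68).

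The genes most like Id4 were Plvap, a protein of fenestrated endothelium (0.66), Mylk, the myosin light chain kinase (0.61), and Shank3 (0.60), with 0.75, 0.77 and 0.62 in section 1 and 0.54, 0.41 and 0.61 in section 2. Among the genes most like Smad6 were Cgref1 and Slc36a2 (both 0.54), and among those most like Smad7 were Mindy2 (0.52) and Ell2 (0.51). Smad9 was most like the amino acid transporter gene Slc36a2 (0.55) and Dlx5 (0.53). The values for Id2 (0.56 with Slc36a2) and Msx2 (0.45 with Sh2b3) came from few UMIs.

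Over all spots, 8 of the 9 genes had a lower level in Nf1Postn than in control in both sections, and 5 were called lower (Id1, Id4, Smad6, Smad9 and Bambi), against 6.37% of 11851 genes called lower and 8.2% called higher. In tissue sections, fewer cells of a type and less RNA per cell cannot be told apart. Bambi was counted at 82.6 and 72.8 CPM in control and 37.5 and 22.9 CPM in Nf1Postn (2.76-fold lower, log2 ratio -1.46, -1.65 to -1.28). Smad6 was counted at 25.2 and 27.2 CPM in control and 12.1 and 8.52 CPM in Nf1Postn (2.66-fold lower, -1.41, -1.74 to -1.10). The members called lower were mostly highest in bone regions of control, and the part of the lower osteoblast and osteoclast markers and the higher muscle markers in these ratios was not tested. For Bambi and Smad6 the sections of a genotype lay closer to each other than to the other genotype.

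Id1 was counted at 299.5 and 255 CPM in control and 190.1 and 141 CPM in Nf1Postn (log2 ratio -0.81, -0.89 to -0.73). Id4 was counted at 76.5 and 64.8 CPM and at 49.1 and 27.9 CPM (-0.99, -1.16 to -0.82), and Smad9 at 12.3 and 10.4 CPM and at 6.93 and 5.68 CPM (-0.89, -1.33 to -0.48). Control values of these 3 genes lay above both Nf1Postn values.

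Id3, at 679.6 and 653 CPM in control and 539 and 348 CPM in Nf1Postn, missed the call because section 1 gave a log2 ratio of -0.34 and section 2 one of -0.91. Id2 (32.5 and 33.2 against 23.7 and 12.4 CPM) and Smad7 (35.2 and 37.7 against 28.3 and 23.6 CPM) missed it for the same reason. Msx2 was at 3.32 and 3.46 CPM in control and at 4.62 and 2.17 CPM in Nf1Postn, on 16 and 13 UMIs, and had no direction. The median log2 ratio over the 9 genes was -0.89 where that of all genes tested was -0.09. With TMM factors, which lowered the median of all genes by 0.14, 8 members were called lower. Of the 11851 genes tested, 1504 were called lower with TMM factors and 755 with total UMIs. The share of all calls that were higher went from 56.3% to 32.1%. Without section 1, all 9 members were at least 1.5-fold lower, and without section 2 5 were. Msx2 was among the 9 in section 2 on 13 Nf1Postn UMIs, with an interval of -1.70 to 0.25. The share of all genes called in a single section was not counted.

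**Figure D4:**
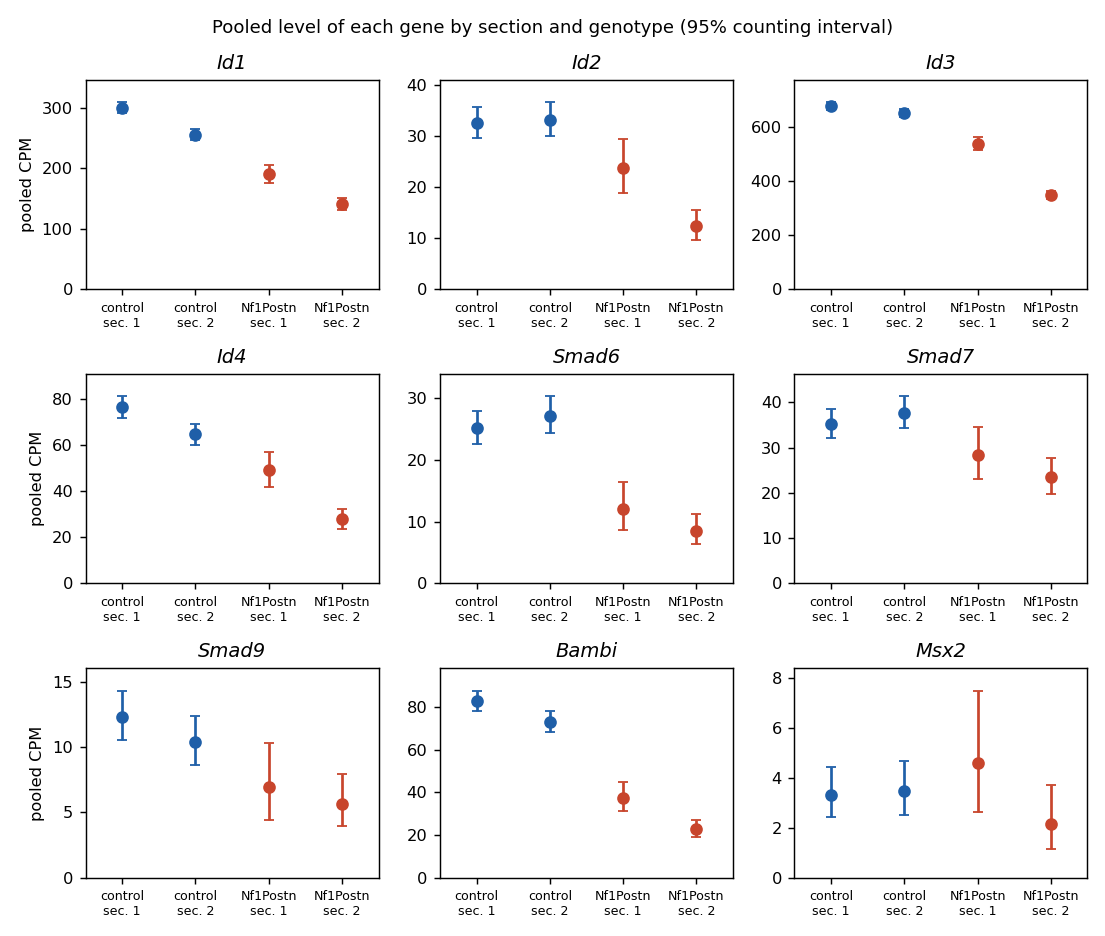
Pooled CPM of each gene in the 4 combinations of section and genotype, with 95% counting intervals (each panel has its own vertical axis from 0). Both Nf1Postn values lie below both control values in every gene but Msx2.

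The genotypes differed in which tissue their spots covered. Without the regions led by muscle genes, 8 of the 9 pooled ratios were closer to 0, Msx2 being the exception. Regions 2, 11 and 13, led by muscle genes such as Myh7, Myh8 and Ckmt2, and region 4, led by Retnla with the muscle endplate genes Ache and Chrne, held 364 control and 1466 Nf1Postn spots. Without them, a choice made after the regions were seen, 2 members were called lower, Bambi (log2 ratio -0.90, -1.13 to -0.68) and Smad6 (-0.86, -1.27 to -0.48), against 1.86% of 11481 genes called lower and 6.59% called higher. Id4 had a log2 ratio of -0.49 (-0.70 to -0.28), Id1 of -0.30 (-0.40 to -0.20) and Id3 of -0.11 (-0.17 to -0.05), and Smad7 was level at 0.06 (-0.20 to 0.30). Msx2 went from -0.14 over all spots to 0.67 (-0.06 to 1.35). The median over the 9 genes was -0.32 and that of all genes 0.11. Muscle was not fully left out by this choice. Region 6, led by the globin genes Hbb-bt and Hbb-bs, was kept with 17 control and 409 Nf1Postn spots. Its muscle markers summed to 120625 CPM in control, against 86161 CPM in region 4 and 97066 CPM in region 11. The spots kept also differed in bone and cartilage, as regions 1, 7, 9 and 14 held 1673 control and 69 Nf1Postn spots. The part of this difference in the ratios was not tested.

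Calls within regions, here and below, have no share of all genes beside them, since it was not counted. They are not read as particular to the members. Within regions that held at least 20 spots of each genotype, Id4 was called lower in Nf1Postn in 2 of the 4 regions where it had 50 UMIs per section, regions 3 and 11. In region 3 (136 control and 500 Nf1Postn spots) it was counted at 132 and 114 CPM in control and 72.5 and 51.5 CPM in Nf1Postn (interval of the log2 ratio -1.49 to -0.49). In region 11 it was at 122 and 44.5 CPM against 23.3 and 27.5 CPM (-1.35, -1.90 to -0.81). In region 8, where Id4 was highest in control, it was at 199 and 157 CPM in control and at 214 and 81.3 CPM in Nf1Postn (-0.26, -0.69 to 0.15), so the sections went opposite ways.

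Id1 was lower in Nf1Postn in 7 of 9 such regions on pooled counts and in both sections in 5 of these, and was called lower in 1, region 11 (log2 ratio -0.95, -1.25 to -0.65). Its ratio was -0.56 (-0.83 to -0.27) in region 3, -0.71 (-1.16 to -0.25) in region 4 and 0.05 (-0.34 to 0.43) in region 12. Id3 was lower in 7 of 9 regions on pooled counts, was called lower in region 11 (-0.95, -1.13 to -0.77) and called higher in region 12, which was led by Gpnmb and Mmp3 (0.80, 0.61 to 0.99). In region 12 the 48 Nf1Postn spots had 777 and 637 CPM of Id3 against 383 and 394 CPM in control. In region 11 Smad6 had 4 UMIs in Nf1Postn and 23 in control (-2.69, -4.69 to -1.15), too few for a call.

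The 9 regions that held both genotypes in both sections, and at least 20 spots of each genotype, were weighted equally. None of the bone and cartilage regions 1, 7, 9 and 14 was among them. With this weighting, 1 member was called lower, Smad6 (log2 ratio -0.66 and -0.84 in sections 1 and 2). The weighted ratios have no interval, and this one rested on 34 and 43 Nf1Postn UMIs of Smad6. In section 1 Smad6 was lower in Nf1Postn in regions 3, 4, 8, 10 and 11. It was higher there in regions 2 and 12, on 4 Nf1Postn UMIs in each. Of all 10725 genes tested, 1.49% were called lower and 1.64% higher. Id4 (-0.47 and -1.13) reached 1.5-fold in section 2 alone. Id1 was at -0.34 and -0.40, Id3 at -0.05 and -0.24, and Smad9 at -0.10 and 0.16. Bambi, at -0.45 and -0.86, turned direction in section 1 without region 15, a region of shallow spots with 20 control spots in section 1 and 1 in section 2, where control Bambi was 1 UMI (0.10 and -0.86 without it). The median over the 8 members tested was -0.35, where that of all genes was 0.05. Section 2 alone gave 4 members lower and section 1 alone 2, again with no share of all genes counted for a single section.

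**Figure D5:**
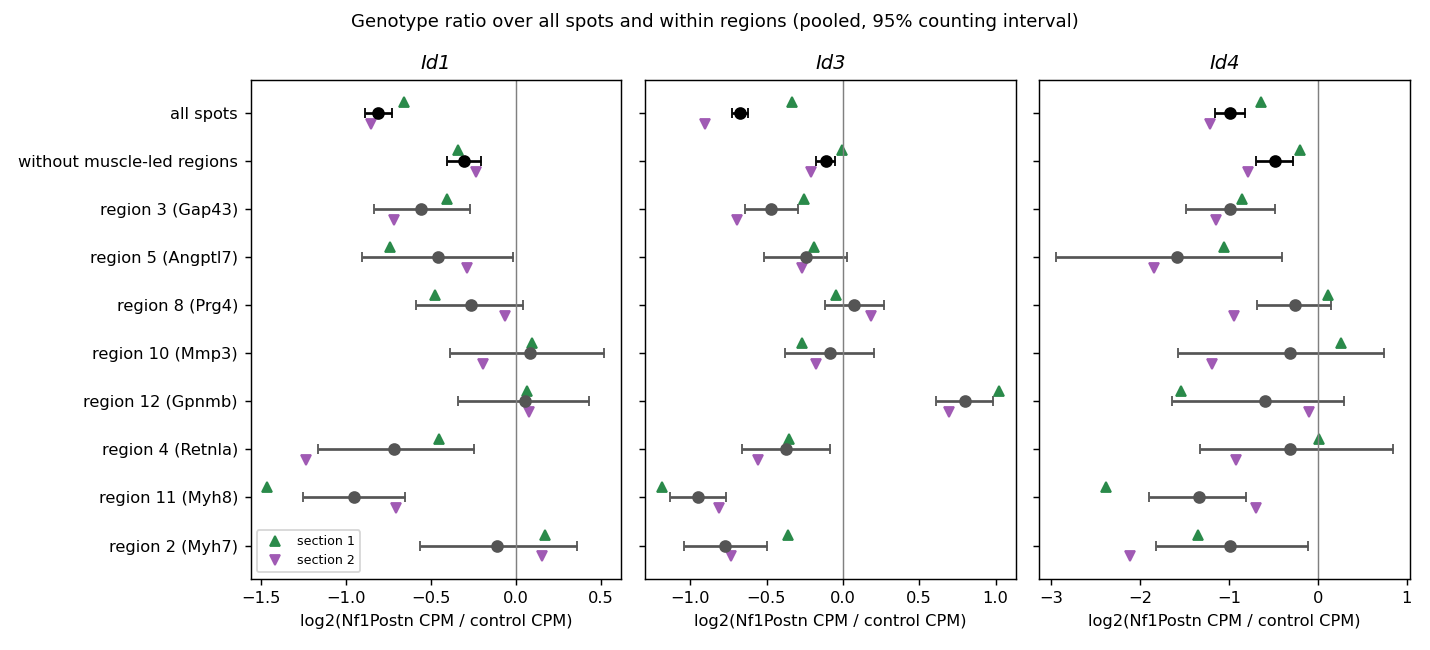
Log2 ratio of Nf1Postn to control CPM for Id1, Id3 and Id4 over all spots, without the regions led by muscle genes, and within regions (circles with 95% counting intervals are both sections pooled; triangles are single sections). Most ratios of Id1 and Id4 lie below 0, and Id3 in region 12 lies above it.

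Over the bone and cartilage regions 1, 7, 9 and 14 together, without region 5, the 69 Nf1Postn spots had 19.5 CPM of Id4 (9.37 to 35.9, 10 UMIs) against 60.0 CPM (56.1 to 64.0) in control. Id3 was at 799 CPM (723 to 880.2) against 770.4 CPM (756 to 785), Id1 at 316 CPM (269.6 to 369) against 323 CPM (314 to 333) and Bambi at 113 CPM (86.0 to 146) against 111 CPM (106 to 116), with overlapping intervals. The mix of the 4 regions differed between the genotypes. In region 1 the 15 Nf1Postn spots had an Id1 log2 ratio of 0.00 (-0.46 to 0.42) to the 733 control spots, Id3 of 0.21 (-0.03 to 0.44), Bambi of -0.25 (-1.06 to 0.46) and Id4 of -1.20 (-2.83 to 0.03). In region 14, with 17 Nf1Postn spots, Id3 was at 0.30 (0.00 to 0.59) and Bambi at -0.42 (-1.46 to 0.48). In region 9, with 10 Nf1Postn spots, Id3 was at 0.25 (-0.09 to 0.58), Bambi at 0.35 (-0.62 to 1.17) and Id4 had 1 UMI. In region 7 the 27 Nf1Postn spots were all in section 2, and against the control spots of section 2 Id3 was at -0.24 (-0.67 to 0.17), Id1 at -0.18 (-0.70 to 0.32) and Bambi at 0.40 (-0.45 to 1.19), while Id4 had 0 UMIs against 23 in control. Intervals this wide cannot show that the genotypes had equal levels in these regions.

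Along the Nf1Postn callus, Id1 and Id3 were highest at one end. At -3 mm from the center Id1 was counted at 324 and 347 CPM and Id3 at 924 and 805 CPM in sections 1 and 2, and at 3 mm at 131 and 81.9 CPM and at 262 and 133 CPM. The bins at -3 mm had 50.6% and 51.3% of their spots in region 3 and 25.9% and 25.0% in region 5. Region 5 had the osteocyte genes Mepe and Sost among its leading genes. Regions led by muscle genes held 0.633% and 0.00% of the spots of these bins. At 3 mm the 10 muscle markers summed to 184389 and 225840 CPM, against 9435 and 18858 CPM at -3 mm, and their part in the gradient was not tested. Bambi was at 83.0 and 40.2 CPM at -3 mm and at 24.9 and 13.2 CPM at 3 mm, with its lowest bin at 2 mm in section 1 (10.3 CPM) and at 0 mm in section 2 (3.31 CPM).

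Other genes of the pathway were described from lists chosen with the members (63 genes in the tables that are no members). Over all spots, 16 of the 59 tested were called lower in Nf1Postn and 4 higher, beside 6.37% and 8.2% of all genes. Without section 1 the count lower was 28, for which no share of all genes was counted. Of 8 BMP ligands tested, 3 were called lower: Bmp7 (2.97-fold), Bmp3 (2.70-fold) and Bmp8a (2.29-fold). Of 11 antagonists, 5 were called lower, the largest changes being in Grem1 (3.59-fold), Chrdl2 (3.16-fold) and the osteocyte gene Sost (1.91-fold). Of 10 receptors and co-receptors none was called lower, and Hjv, a co-receptor also made by skeletal muscle (5.32-fold), and Bmpr1b (1.66-fold) were called higher. Of 9 signal transducers and their regulators, Tob1 was called higher (2.47-fold) and none lower, shares near those of all genes. Of 11 other BMP targets, 4 were called lower, led by the osteoblast factors Dlx3 (3.04-fold), Sp7 (2.60-fold) and Dlx5 (2.43-fold). Sost was also among the osteocyte markers and Sp7 among the osteoblast markers, so the pathway and marker lists were not separate. Of 8 targets of transforming growth factor β, 4 were called lower, among them Tnc (2.29-fold) and Ccn2 (1.95-fold).

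Without the regions led by muscle genes, 6 of 58 pathway genes were called lower, beside 1.86% of 11481 genes. These were Chrdl2 (4.53-fold), Grem1 (2.00-fold), Nog (1.77-fold), Dlx3 (1.80-fold), Dlx5 (1.60-fold) and Sp7 (1.56-fold). Called higher were 2, Bmpr1b (2.83-fold) and Hjv (2.52-fold), beside 6.59% of all genes, so this count was not above the share of all genes. The 3 E proteins that ID proteins bind were not called in any comparison. Named after their values were seen, Tcf3 had a genotype log2 ratio of -0.66 (-0.81 to -0.50) over all spots, Tcf4 of -0.42 (-0.49 to -0.36) and Tcf12 of -0.25 (-0.35 to -0.15).

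In control, region 1 over region 7 gave 11 pathway genes called higher and 4 lower of 47 tested, beside 8.67% and 2.66% of 8054 genes. The ligands Bmp4 (2.89-fold), Bmp3 (2.19-fold) and Bmp8a (2.15-fold), the listed targets Hey1 (2.68-fold), Dlx3 (2.19-fold) and Lfng (1.94-fold), and Sost (4.26-fold) were called higher in the bone region. The 4 called lower there were targets of transforming growth factor β, among them Ccn2 (3.00-fold) and Tgfbi (2.03-fold), while Tnc of the same list was called higher (2.64-fold). No receptor or signal transducer was called in this comparison, of 8 tested in each list.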

How the data were processed

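The 2 sections, each with the callus of a control and an Nf1Postn mouse, were profiled by Visium. Per the labels' processing notes and the study's methods, the authors aligned reads to mm39 with Space Ranger 1.3.0 and deposited UMI counts per gene and spot with a genotype for each spot. In these deposited files, 10 joined rows were not whole numbers, so the values were treated as estimated counts, and no member was among those rows. The members and lists were chosen with earlier results of these data known.

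From the counts, UMIs were summed over the spots of a group and scaled to a total of 1000000 (CPM) with exact Poisson 95% intervals. Log2 ratios of 2 groups carry the exact binomial (Clopper-Pearson) interval of the UMI split. Intervals cover counting error only, and with sections not known to be separate animals no test was made. A gene with at least 50 UMIs in each section was called when its ratio reached 1.5-fold the same way in both sections. Regions were Leiden clusters of log2(CPM + 1) values (16830 genes, members and pathway left out, 20 principal components, 15 neighbors, resolution 0.5), found with scikit-learn 1.9.0, igraph 0.11.9 and leidenalg 0.10.2 in Python 3.11.15 with SciPy 1.17.1. Regions were compared in control where they held at least 20 spots of control in each section. Likeness was Pearson's r of log2(CPM + 10) over tiles of 6 array rows by 12 columns with at least 10 spots. All members were named, of each pathway list at most the 3 called genes with the largest ratio each way, and per member the 3 most alike genes, except that some genes the rule would name are not reported here. Alternatives were TMM factors (edgeR 4.0.16), other fold limits, minimums, clusterings, thinning to 1000 UMIs and single sections. The ratio calculation was checked on simulated data. Depth was 12122419 to 13562253.5 UMIs per section in control and 3462224.5 to 5984157 in Nf1Postn.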

Additional observations from a re-analysis of the deposited data

Results flagged for a closer look

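The genotype ratio of 2 members went one way in both sections of some regions and the other way in both sections of others. The differences between regions were not tested. For Id1, both sections were lower in Nf1Postn in region 3 (pooled log2 ratio -0.56), region 4 (-0.71), region 5 (-0.46), region 8 (-0.26) and region 11 (-0.95). Both were higher in region 12 (0.054, -0.34 to 0.43) and region 2. In region 2 the pooled value was -0.11 (-0.56 to 0.36) although each section alone was above 0, and control had 6 Id1 UMIs in section 2. In neither region was Id1 higher beyond counting error. Id3 was lower in both sections in region 2 (-0.77), region 3 (-0.47), region 4 (-0.37), region 5 (-0.24), region 10 (-0.081) and region 11 (-0.95), and higher in both in region 12 (0.80).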

How the results depend on the processing

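No paired analysis was possible because no test was made and the sections are not known to be separate animals. Of 469 alternative values, the direction of the members' ratios was kept in 94 of 99 for the genotype over all spots. It was kept in 49 of 52 for bone over cartilage and in 103 of 112 with regions weighted equally. None of the called ratios changed sign. In the same order, 21 of 99, 16 of 52 and 34 of 112 values moved by more than 1 standard deviation of the 2 sections. These totals include the settings with no minimum of UMIs and with a 2-fold limit. Both settings change calls only and leave every ratio as it was, so their values could neither change direction nor move. Over all spots, 5 members were called lower. This count was 8 with TMM factors, 3 with spots thinned to 1000 UMIs, 2 with a 2-fold limit, 2 without the regions led by muscle genes, and 5 to 9 with 1 section left out. The 16 pathway genes called lower became 33 with the mean over spots of log2(CPM + 1), 10 with thinning, 7 with a 2-fold limit, 6 without the regions led by muscle genes and 18 to 28 with 1 section. The 4 called higher became 0, 2, 1, 2 and 4 to 5 in the same order. For bone over cartilage, the 2 members called higher became 0 with TMM factors, 1 with thinning, 5 with no minimum of UMIs, 0 with a 2-fold limit, 5 at resolution 0.3, 4 with members and pathway genes kept in the clustering, 5 with region 1 as the bone region and 2 to 3 with 1 section. With regions weighted equally, the 1 member called lower became 0 with thinning, 0 with a 2-fold limit, 2 with members and pathway genes kept in the clustering and 2 to 4 with 1 section. The 5 members highest in a bone region became 3 at resolution 1.0. Leaving out muscle-led regions or the region of shallow spots, and region 1 as bone, were chosen after seeing the data. With regions weighted equally, the log2 ratio of Bambi went from -0.82 to -0.33 without the region of shallow spots. Over distance to region 7, the 7 members higher next to it were 6 to 7 with 1 section left out. Calls over all genes were counted for TMM factors, without the muscle-led regions and with region 1 as bone. Over all spots, 1504 of 11851 genes were called lower with TMM factors, against 755 with total UMIs. For single sections and the other alternatives given here, the share of all genes called was not counted. Those counts are not read as particular to the members or the pathway. The causes were not tested. Id2, Smad6, Smad9 and Msx2 had too few UMIs for any call within a region.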
